A study of Homo sapiens with 6 samples.

Results

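Small matrix proteoglycans, microfibril genes and fibroblast surface markers were followed in a cultured mammary epithelial line. The set held 10 genes, DCN, LUM, BGN, DPT, FAP, MFAP5, FBN1, THY1, PDGFRB and SULF1, found by symbol among 57820 Ensembl gene rows. All 10 were among the 14763 genes kept by the filter on low values, a mean of 2 raised to the deposited value of at least 10. They were selected on function and on a readout, the log2 difference between cells without EGF and the controls, which was known from earlier results. Values of that difference, and counts of the 10 genes past its threshold, are therefore given as a description that supports nothing about the set. The cells were hTert-HME1, human mammary epithelial cells immortalised with telomerase, transfected with siRNA in RNAiMAX and grown in mammary epithelial growth medium. The control siRNA (control-1) with EGF, the ligand of the receptor EGFR, gave 3 libraries, 1 at passage 4 (control P4) and 2 at passage 6 (controls A and B). An siRNA against the repair gene BRCA2 (BRCA2-2) gave 1 library with EGF at passage 4 and 2 libraries without EGF at passage 6 (A and B). Control siRNA without EGF and the BRCA2 siRNA with EGF at passage 6 were not analysed here, so siRNA and medium cannot be told apart at passage 6.

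Connective tissue cells secrete most of the proteins in question. Decorin, lumican and biglycan are small leucine-rich proteoglycans, proteins with leucine-rich repeats and glycosaminoglycan chains that bind collagen fibrils and growth factors. Fibrillin polymers form microfibrils, which carry elastin and hold latent TGF-beta, and microfibril-associated proteins decorate them. FAP, THY1 and PDGFRB mark fibroblasts, activated stroma or pericytes in the breast and elsewhere. In bulk RNA fewer cells of a type and less RNA per cell cannot be told apart.

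Values are on the authors' log2 scale, which is not divided by gene length, so levels are compared within a gene and not between genes. Folds are 2 raised to a difference, and differences of low genes may be understated on this scale. The depth of each library is unknown. BRCA2 was at 10.19 in control P4 and 10.88 in the +EGF library labelled BRCA2-2, so the targeted gene goes against that label, and directions resting on this library hold by label only. In control A it was at 11.25, in control B at 11.24, and without EGF at 11.15 (A) and 10.89 (B). Controls A and B were much closer to each other over tested genes (SD of the difference 0.119) than the pair without EGF (0.308), and p-values measure only the spread between libraries of this single line, called biological replicates in the labels with no word on separate cultures, which may be technical. EGFR lay between 15.15 and 16.25 in all libraries. Epithelial markers were present for 13 of 14 genes, with EPCAM at 0.09 or lower in all libraries.

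Fibroblast markers outside the 10 genes were only partly present. Of 15, 10 passed the filter. The others were COL1A2 (at most 2.76), the PDGF receptor gene PDGFRA (at most 3.49), PRRX1 (at most 3.04), CD248 (at most -0.52) and TCF21 (at most -1.95). The summed level of the list, as 2 raised to the value, was 35220 to 47220 in the controls, 38450 in the +EGF library labelled BRCA2-2 and 27180 to 28690 without EGF. One gene, VIM, of the intermediate filament vimentin, made up 90.9% to 93.1% of that sum in the controls, 89.7% in the +EGF library labelled BRCA2-2 and 75.7% to 78.3% without EGF. Without VIM the sum had the opposite order, 2869 to 3273 in the controls, 3974 and 6212 to 6615. Most of that sum without EGF came from COL3A1 and COL1A1, so its order is not that of the list at large. COL3A1 was at 11.34 and 11.56 without EGF (9.07 to 9.93 in the controls), and COL1A1 at 10.76 and 10.55 (8.91 to 9.02). For pericyte and smooth muscle markers the sum was 1034 to 1117, 1132 and 1636 to 1743, with 7 of 9 past the filter, CNN1 listed at 0 and DES at -1.95 or lower. The epithelial sum was 516200 to 558300, 483200 and 743400 to 798400. Of 8 endothelial markers 7 were found by symbol, PECAM1 not being matched, and 2 passed the filter, with CDH5 listed at 0. Their sum was 294 to 1112 in the controls, 384 and 600 to 789, of which KDR made up 89.3% or more in each library. No haematopoietic marker of 8 passed, and their sum stayed between 17.3 and 19.6 in all libraries. The part of other cell types in the results below was not tested.

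MFAP5 (ENSG00000197614), a microfibril-associated glycoprotein, had the widest range of the set. It was at 3.57 (P4), 3.95 (A) and 3.63 (B) in the controls and 3.79 in the +EGF library labelled BRCA2-2, and at 6.18 (A) and 5.66 (B) without EGF. The 4 libraries with EGF lay within a narrow band, and both libraries without EGF stood well above it. The difference between cells without EGF and the 3 controls was 2.20 ± 0.22 on the log2 scale (limma standard error), or 4.61-fold. Against the passage 6 controls alone it was 2.13 ± 0.23.

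FBN1 (ENSG00000166147), which encodes fibrillin-1, the main structural protein of microfibrils, varied less. Its log2 values were 12.31, 12.73 and 12.87 in controls P4, A and B, 12.62 in the +EGF library labelled BRCA2-2, and 13.15 and 13.23 without EGF. Both libraries without EGF were the highest, but the step from control B was smaller than the step between control P4 and control A. FBN1 was 1.47-fold higher without EGF than in the 3 controls (0.56 ± 0.19) and 1.31-fold higher than in the passage 6 controls (0.39 ± 0.085).

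**Figure D1:**
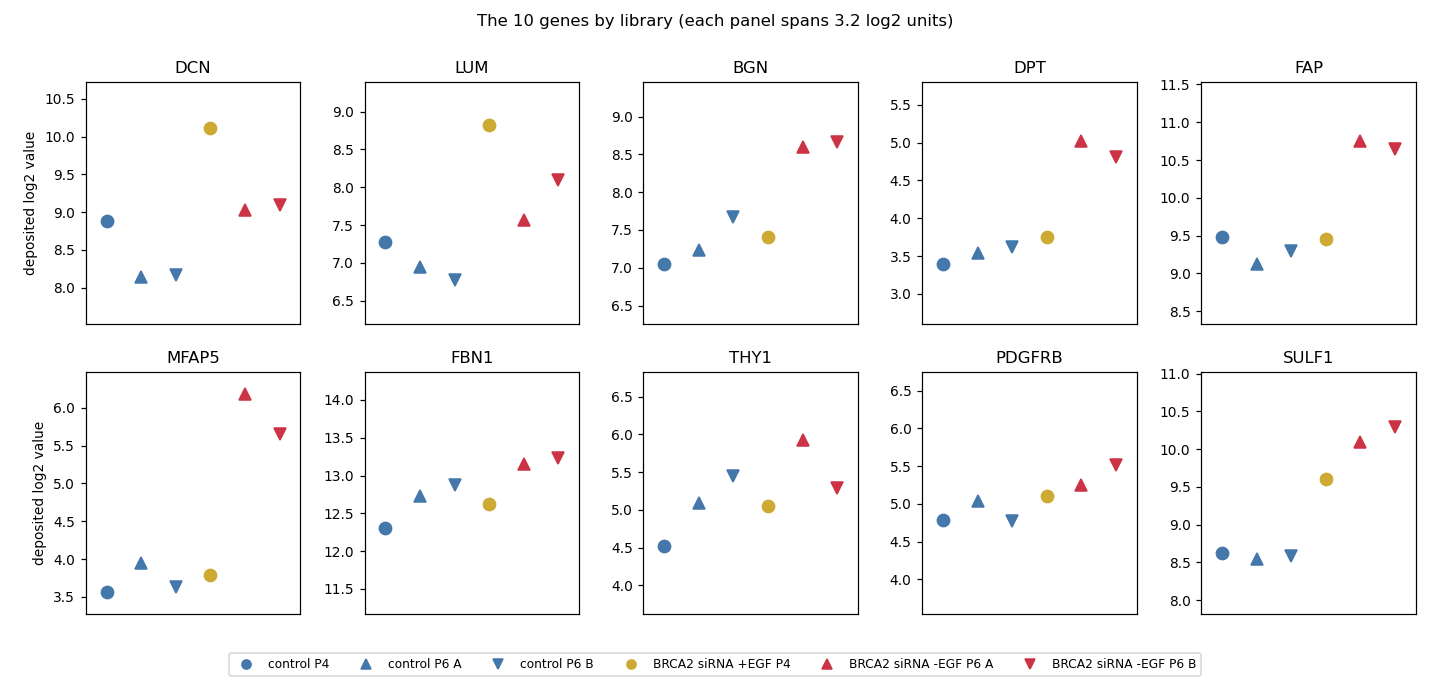
Deposited log2 value (vertical axis, 3.2 units in each panel) of the 10 genes in each of the 6 libraries (1 point each; colour, group; shape, replicate). MFAP5, DPT, FAP and BGN are highest in the libraries without EGF (red) and low in the other 4, whereas DCN and LUM are highest in the +EGF library labelled BRCA2-2 (yellow).

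DCN (ENSG00000011465) encodes decorin, a collagen-binding proteoglycan. Its log2 value was 8.88 (P4), 8.14 (A) and 8.17 (B) in the controls, 10.11 in the +EGF library labelled BRCA2-2, 9.03 in library A without EGF and 9.10 in library B. Thus the +EGF library labelled BRCA2-2 was the highest, control P4 came close to the libraries without EGF, and the passage 6 controls were the lowest. LUM (ENSG00000139329), the gene of lumican, which binds collagen fibrils in cornea and other stroma, had 7.28, 6.95 and 6.77 in controls P4, A and B, 8.82 in the +EGF library labelled BRCA2-2, and 7.57 and 8.10 without EGF. The order of groups was that of DCN. Among protein-coding genes of the RefSeq annotation (GRCh38.p14), LUM and DCN are immediate neighbours. On the other side of LUM lies KERA, another proteoglycan of the family, which is listed at 0 in all 6 libraries, and on the other side of DCN lies BTG1, a gene of an antiproliferative protein, whose difference was 0.04 without EGF against the 3 controls and -0.94 between passages 6 and 4 of the controls.

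BGN (ENSG00000182492), the gene of biglycan, followed another course than DCN and LUM. Its log2 values were 7.05 (P4), 7.23 (A) and 7.67 (B) in the controls, 7.41 in the +EGF library labelled BRCA2-2, and 8.60 (A) and 8.67 (B) without EGF. Here the +EGF library labelled BRCA2-2 lay among the controls. The difference from the 3 controls was 1.32 ± 0.21, or 2.49-fold. DPT (ENSG00000143196), the gene of dermatopontin, a small matrix protein that binds decorin and collagen, was at 3.39, 3.54 and 3.62 in controls P4, A and B, 3.75 in the +EGF library labelled BRCA2-2, and 5.02 and 4.81 without EGF. Both libraries without EGF lay above the other 4, and its difference from the controls was 1.40 ± 0.15, or 2.63-fold.

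BGN and DPT had the most alike profiles of any pair of the 10 genes, with a root mean square difference of 0.159 between their log2 values centred on each gene's mean over the 6 libraries. Their promoters are shown because these genes moved together and differ in base composition. The RefSeq table at hand (GRCh38.p14) matched 4 of the 10 genes. The 250 bases before the start lie at chrX:153494730-153494979 on the + strand for BGN and at chr1:168729207-168729456 on the - strand for DPT, and are given from 5′ to 3′, where capitals mark a match on either strand to the word GGGCGG, a binding word of Sp1, or to the word TATAAA, that of the core promoter.
BGN: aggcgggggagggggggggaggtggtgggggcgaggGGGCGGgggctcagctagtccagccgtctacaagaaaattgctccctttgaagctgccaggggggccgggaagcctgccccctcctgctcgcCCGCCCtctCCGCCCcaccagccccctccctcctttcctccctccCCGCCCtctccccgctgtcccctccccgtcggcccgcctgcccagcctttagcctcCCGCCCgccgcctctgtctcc
DPT: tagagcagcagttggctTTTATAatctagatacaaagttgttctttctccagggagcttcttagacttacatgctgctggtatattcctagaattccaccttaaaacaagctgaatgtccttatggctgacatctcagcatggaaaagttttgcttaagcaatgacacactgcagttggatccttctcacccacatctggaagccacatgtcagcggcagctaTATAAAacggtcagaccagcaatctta
The BGN window was 74.0% G or C and held 5 matches to GGGCGG, a word present in 42.6% of 35116 promoter windows of that length. For DPT the share of G or C was 42.4%, against a median of 58.0% over all windows. DPT held 2 matches to TATAAA, starting 233 and 27 bases before the start, and 10.7% of windows had at least 1. Neither window held TGANTCA, the word bound by AP-1 (6.57% of windows), or CCAAT (32.0%), and these words were also searched on both strands. The FBN1 window (69.6% G or C) held none of the 4 words. That of PDGFRB (58.4%) held 1 GGGCGG and 1 CCAAT. These matches describe the letters alone.

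FAP (ENSG00000078098) encodes fibroblast activation protein, a membrane-bound serine protease of activated stroma. It was at 9.48 (P4), 9.12 (A) and 9.30 (B) in the controls and 9.45 in the +EGF library labelled BRCA2-2, and at 10.75 and 10.65 without EGF. All 4 libraries with EGF were close together and clear of the libraries without EGF. The difference from the 3 controls was 1.40 ± 0.15, or 2.64-fold. SULF1 (ENSG00000137573) encodes an extracellular sulphatase that removes sulphate groups from heparan sulphate and so alters growth factor binding. Its log2 value was 8.62 (P4), 8.55 (A) and 8.58 (B) in the controls, 9.60 in the +EGF library labelled BRCA2-2, 10.10 in library A without EGF and 10.29 in library B. The 3 controls barely differed (SD 0.033), the +EGF library labelled BRCA2-2 lay between the groups, and the libraries without EGF were highest. SULF1 was 3.06-fold higher without EGF than in the controls (1.61 ± 0.12).

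THY1 (ENSG00000154096), the gene of a glycolipid-anchored surface protein of fibroblasts and thymocytes, was at 4.52, 5.09 and 5.45 in controls P4, A and B, 5.05 in the +EGF library labelled BRCA2-2, and 5.93 (A) and 5.29 (B) without EGF. Of the 10 genes it alone overlapped between the controls and the libraries without EGF, since library B lay below control B. Its difference was 0.59 ± 0.33. PDGFRB (ENSG00000113721), the receptor for PDGF-B and PDGF-D on pericytes and fibroblasts, was at 4.79 (P4), 5.04 (A) and 4.77 (B) in the controls, 5.10 in the +EGF library labelled BRCA2-2, and 5.25 and 5.52 without EGF. The steps between libraries were small, and library A without EGF was only just above the 4 libraries with EGF. The difference was 0.52 ± 0.17, or 1.44-fold.

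The first comparison, BRCA2-2 cells lacking EGF (n = 2) against control-1 cells given EGF (n = 3), is the one known when the genes were chosen. All 10 differences were above 0, from 0.52 for PDGFRB to 2.20 for MFAP5, with a median of 1.08, where all tested genes had a median of -0.03. The limma fit over all genes placed 4 of the 10, SULF1, FAP, DPT and MFAP5, past the threshold. It did so for 0.853% of all tested genes in the higher direction and 0.989% in either direction. As the genes were selected on this same difference, nothing is read from that count or from the counts that follow. With only the passage 6 controls as the reference (a passage term in the fit), 6 of the 10 were past it, DCN and BGN in addition, where 3.56% of all genes were in the higher direction and 6.44% in either. In the fit with no passage term, leaving out library A or library B of the group without EGF left a lone library there. No call then held, of the 10 genes or of any other. Only 1 of the 10 (MFAP5) was past the threshold without control A and only 1 (SULF1) without control B. Averaging controls A and B left 2, MFAP5 and SULF1. Few genes of any kind were called in these fits, 29 of 14763 without control A, 38 without control B and 37 with the controls averaged. Both libraries without EGF lay above all 4 libraries with EGF for 7 of the 10 genes, a pattern of 16.6% of tested genes, and below them for none, where 22.2% of genes were. Against the 3 controls alone they lay above for 9 of 10 (18.1% of tested genes). The exceptions to the first pattern were DCN and LUM, through the +EGF library labelled BRCA2-2, and THY1, through control B.

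**Figure D2:**
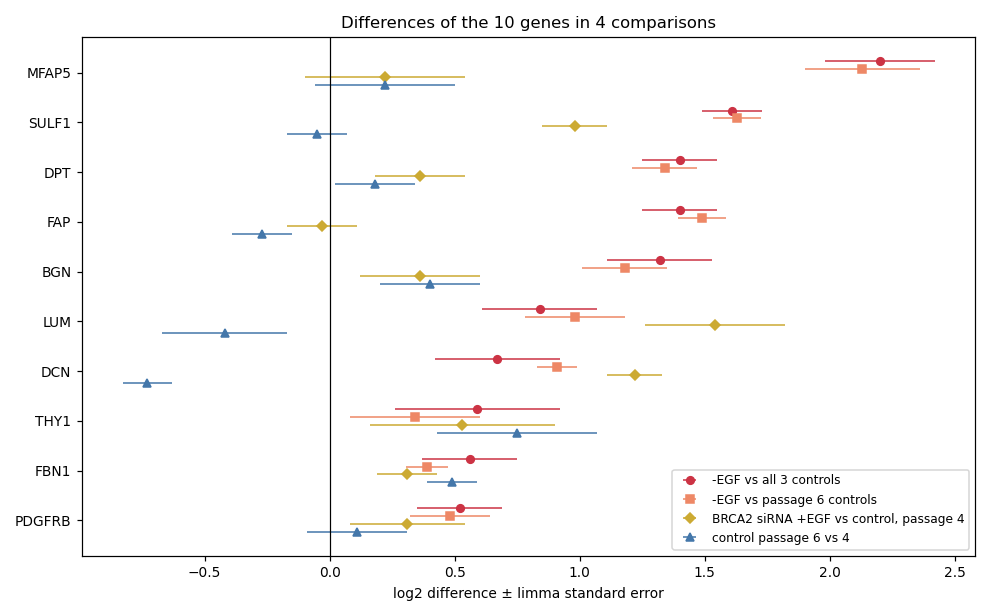
Log2 difference (horizontal axis) with the limma standard error (bars) for each gene, for cells without EGF against all 3 controls and against the passage 6 controls, the BRCA2-2 and control libraries of passage 4, and control passage 6 against 4. MFAP5, SULF1, DPT, FAP and BGN lie above 1 in both comparisons of cells without EGF, LUM and DCN have their largest difference in the passage 4 pair, and DCN is the lowest in the control passage comparison.

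Passage was compared within the control siRNA. Passage 6 (n = 2) was set against passage 4 (n = 1, which takes its spread from the passage 6 pairs). As control P4 had the lowest BRCA2 value of all libraries, directions here hold by its label only. DCN was lower at passage 6 (-0.73 ± 0.098, adjusted p = 0.0236, limma), at 0.603 of its passage 4 level. FBN1 rose by 0.49 ± 0.10 (adjusted p = 0.0405, limma), or 1.41-fold. These 2 of 10 genes were called where 20.1% of all tested genes were, 7.71% higher and 12.4% lower (1138 and 1825 genes, or 1488 and 1339 with libraries centred on their median). Both passage 6 controls lay above control P4 for BGN, DPT, MFAP5, FBN1 and THY1 (5 of 10, against 43.9% of tested genes) and below it for DCN, LUM, FAP and SULF1 (4 of 10, against 49.2%). For the first 5 control P4 was also the lowest of all 6 libraries, as for 23.9% of tested genes. THY1 had a difference of 0.75 ± 0.32 (adjusted p = 0.146, limma) and LUM one of -0.42 ± 0.25 (adjusted p = 0.256, limma). BGN had 0.40, MFAP5 0.22, DPT 0.18, PDGFRB 0.11, SULF1 -0.05 and FAP -0.27, none past the threshold, and the sign for SULF1 turned to 0.02 when libraries were centred on their median or quantile normalised. Both calls rest on controls A and B together. Without control A the adjusted p was 0.187 for DCN and 0.227 for FBN1, and without control B it was 0.21 and 0.335 (limma). With controls A and B averaged these were 0.205 and 0.281, and with no filter 0.0697 and 0.0894. Without library A or without library B of the group without EGF, 5 of the 10 were called, since the spread then comes from controls A and B alone. LUM, FAP and THY1 were the additional genes, and over 14763 tested genes 9835 and 9849 were called.

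The siRNA was compared among libraries with EGF. The controls used here also entered the difference on which the genes were chosen. Counts and p-values of the 10 genes are therefore only a description in this comparison, and nothing is read from them. Against the same 3 controls as in the first comparison, the +EGF library labelled BRCA2-2 (n = 1) had no gene past the threshold (limma, 0 of 14763 or 0%, with 412 at an unadjusted p under 0.05). The 3 of the 10 genes at an unadjusted p under 0.05 were DCN, LUM and SULF1. LUM was 3.52-fold higher by label (1.82 ± 0.30), DCN 3.27-fold (1.71 ± 0.32) and SULF1 2.02-fold (1.02 ± 0.15), and each had an adjusted p of 1 (limma). The other 7 differences ran from -0.02 for FBN1 to 0.24 for DPT. Within passage 4 the pair differed by 1.54 ± 0.28 for LUM, 1.22 ± 0.11 for DCN and 0.98 ± 0.13 for SULF1, with adjusted p of 0.126, 0.118 and 0.118 (limma with a passage term). In that pair the difference was 0.53 for THY1, 0.36 for BGN and DPT, 0.31 for FBN1 and PDGFRB, 0.22 for MFAP5 and -0.03 for FAP. The +EGF library labelled BRCA2-2 lay above all 3 controls for DCN, LUM, DPT, PDGFRB and SULF1 (5 of 10, against 19.6% of tested genes). It was the highest of all 6 libraries for DCN and LUM, a pattern of 14.2% of tested genes. The SD of its difference over these 10 genes was 0.806 to control A, 0.887 to control B and 0.499 to control P4, whereas over all tested genes it was closer to controls A and B (0.290 and 0.321) than to control P4 (0.397).

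Cells labelled BRCA2-2 without EGF at passage 6 (n = 2) were then set against those with EGF at passage 4 (n = 1). Medium and passage differ together in this comparison, and it shares its libraries without EGF with the first, on which the genes were chosen. Counts and p-values of the 10 genes are therefore a description here too, and nothing is read from them. The same holds with the passage difference of the controls taken off or without control P4. None of the 10 passed the threshold, where 0.203% of tested genes did (limma, 30 genes), and 7 had an unadjusted p under 0.05, as had 2423 of the 14763 tested genes. MFAP5 had 2.13 ± 0.29 (adjusted p = 0.0664, limma), FAP 1.25 ± 0.20 (0.0867), BGN 1.22 ± 0.28 (0.178) and DPT 1.16 ± 0.20 (0.0903). SULF1 had 0.60, FBN1 and THY1 0.57 and PDGFRB 0.29. DCN (-1.04 ± 0.34, adjusted p = 0.251, limma) and LUM (-0.98 ± 0.31, adjusted p = 0.246) had the opposite sign. Taking off the passage difference of the controls left DCN at -0.31, LUM at -0.56 and THY1 at -0.18, whereas FAP was then at 1.52 ± 0.17 and passed (adjusted p = 0.0347, limma), with 3.85% of tested genes called. Without control P4, 7 of the 10 passed among 2404 genes called, with BGN, DPT, FAP, MFAP5, FBN1 and SULF1 higher and DCN lower (adjusted p between 0.016 and 0.0378, limma).

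**Figure D3:**
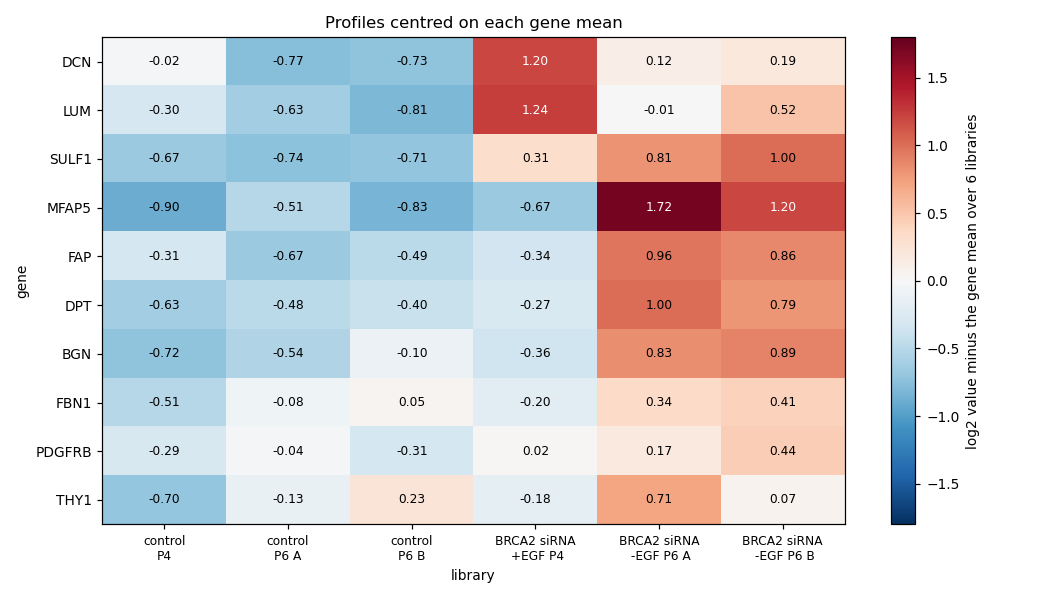
Log2 value minus the gene's mean over the 6 libraries (colour and printed number) for each gene (rows) in each library (columns). DCN and LUM reach 1.20 and 1.24 in the +EGF library labelled BRCA2-2, where MFAP5, FAP, DPT and BGN are below 0, and these 4 genes are between 0.79 and 1.72 in the libraries without EGF.

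Seen as profiles over the 6 libraries, the 10 genes did not form a single pattern, a reading made after their values were seen. After BGN with DPT the most alike pairs were DPT with FAP (root mean square difference 0.160), DCN with LUM (0.195) and FBN1 with PDGFRB (0.207). This distance is not scaled, so genes that vary little come out close. The root mean square about the gene's own mean was 0.261 for PDGFRB and 0.314 for FBN1, against 0.662 for DCN and 0.701 for LUM. Ranges of the 10 genes over the libraries ran from 0.75 for PDGFRB and 0.92 for FBN1 to 1.97 for DCN, 2.05 for LUM and 2.62 for MFAP5. The range of MFAP5 was at the 99.6th percentile of tested genes and that of PDGFRB at the 67.4th.

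For each of the 10 genes the closest profiles were sought over all tested genes, by the same distance and as a description. DCN was nearest to SAA2, a serum amyloid A gene (0.143, with reads uncertain between near-identical copies), and then to LUM. LUM was nearest to WFDC21P (0.168) and then to DCN. The nearest to MFAP5 was TNFSF10, the gene of the death ligand TRAIL (0.148). BGN was nearest to PLA2R1, a phospholipase A2 receptor (0.118), and to the keratinocyte transglutaminase TGM1 (0.12). The closest gene to FAP was SPRR1B, of the cornified envelope (0.0601, uncertain because of related copies), and the next was INAVA (0.0793). SPRR1B was at 2.74 to 3.02 with EGF, under the level of the filter, and passed it only through the libraries without EGF (4.31 and 4.21). INAVA was also the nearest to DPT (0.087), ahead of the matrix protein OLFML2B (0.0959). With EGF OLFML2B was near the level of the filter (2.99 to 3.46), against 4.57 and 4.36 without. SULF1 was nearest to the serpin SERPINB2 (0.124) and to the complement protease C1S (0.178). THY1 was nearest to LINC01085 (0.0683) and to the matrix protease ADAMTS12 (0.0887). FBN1 and PDGFRB, with the smallest ranges, had non-coding transcripts as nearest profiles, SLC9A3-AS1 (0.035) and GATD1-DT (0.036) for FBN1 and PSMB8-AS1 (0.0593) and ZNF337-AS1 (0.0622) for PDGFRB. Whether counting used strand is not given, so reads of these and of overlapping genes cannot be told apart.

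Related genes were read from lists of the same pathways. These and the marker lists were also chosen with earlier results known, so their counts and p-values without EGF are a description. Of all tested genes 0.853% were called higher in that comparison, and 6813 of 14763 were above 0. Of the other 12 small leucine-rich proteoglycans 5 passed the filter, none was called in any comparison, and their differences without EGF against the 3 controls ran from -0.01 for PRELP to 0.51 for the collagen-binding FMOD. Of the other 18 microfibril and elastic fibre genes 13 passed the filter and 1 was called higher without EGF. That was EFEMP1, a fibulin, with 13.27, 13.41 and 13.46 in controls P4, A and B, 13.06 in the +EGF library labelled BRCA2-2, and 14.30 and 14.35 without EGF (0.95 ± 0.12, adjusted p = 0.038, limma). FBLN1, another fibulin, had 0.69 ± 0.14 (adjusted p = 0.105, limma), and the median over the 13 was 0.27. In the control passage comparison MFAP3, of a microfibril-associated protein, rose by 0.56 ± 0.11 (adjusted p = 0.0382, limma). No gene passed in that comparison without control A or without control B (0 of 14763, with 2959 and 2674 at an unadjusted p under 0.05, limma).

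Among the other 14 genes of heparan and chondroitin sulphate proteoglycans and sulphatases, 11 passed the filter, all 11 were above 0 without EGF, with a median of 0.51, and 2 were called higher. SULF2, the second heparan sulphatase, was at 10.93, 11.34 and 11.48 in controls P4, A and B, 10.83 in the +EGF library labelled BRCA2-2, and 12.83 and 12.76 without EGF. Its difference was 1.54 ± 0.19 (adjusted p = 0.0324, limma), near the 1.61 of SULF1, but it was not high in the +EGF library labelled BRCA2-2. HSPG2, the gene of the basement membrane proteoglycan perlecan, rose by 0.98 ± 0.13 (adjusted p = 0.0376, limma). SULF2 also rose between passages of the controls (0.49 ± 0.11, adjusted p = 0.0417, limma). Of PDGF ligands and the other receptor, 4 of 5 passed the filter and none was called. PDGFD, of a ligand of PDGFRB, had 1.06 ± 0.29 (adjusted p = 0.18, limma) and PDGFA 0.21.

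**Figure D4:**
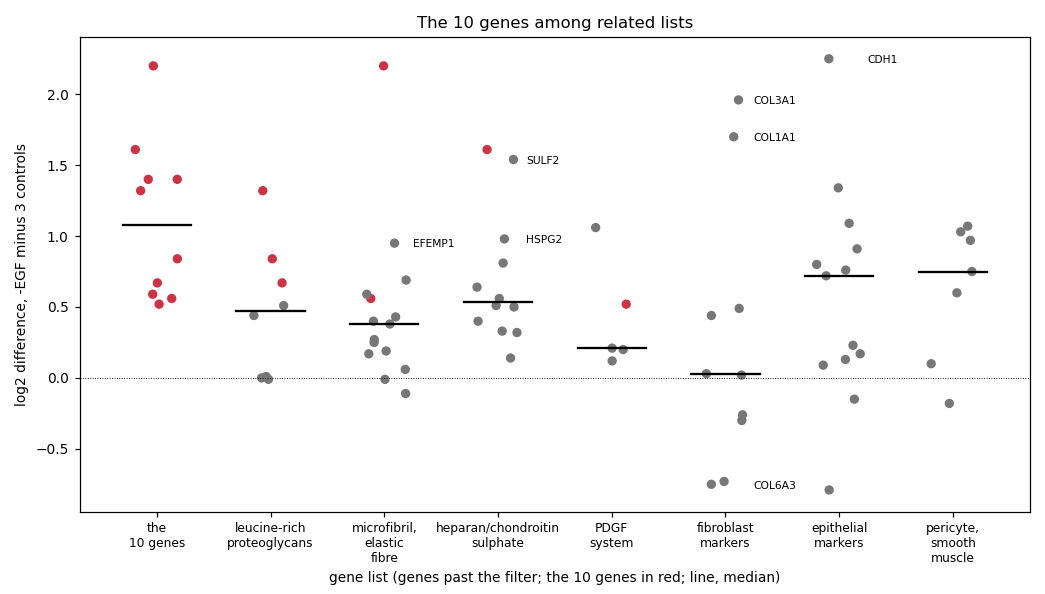
Log2 difference between cells without EGF and the 3 controls (vertical axis) for the tested genes of each list (points, placed with random horizontal jitter; red, the 10 genes; line, list median). The 10 genes have a median of 1.08, and the fibroblast markers outside them have one of 0.03, with COL3A1 and COL1A1 on top.

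The fibroblast markers outside the 10 genes did not move as one. Of 10 tested, 6 were above 0 without EGF against the 3 controls, with a median of 0.03. The fibrillar collagen genes COL3A1 (1.96 ± 0.26, adjusted p = 0.0403, limma) and COL1A1 (1.70 ± 0.13, adjusted p = 0.00918) rose, whereas COL6A3 of microfibrillar collagen VI had -0.75 (adjusted p = 0.107) and the intermediate filament gene VIM -0.73 (adjusted p = 0.159). With a passage term 4 were called higher and 2 lower, the latter COL6A3 and VIM, where 525 and 425 of 14763 tested genes were. COL3A1 was at 10.42 in the +EGF library labelled BRCA2-2, against 9.07, 9.48 and 9.93 in controls P4, A and B. Pericyte and smooth muscle markers were above 0 in 6 of 7 cases (median 0.75) and none was called, NOTCH3 at 1.07 (adjusted p = 0.0512, limma) and CSPG4 at 1.03 (adjusted p = 0.0545) coming nearest. Epithelial markers were above 0 in 11 of 13 cases (median 0.72), and CDH1, the gene of E-cadherin, rose by 2.25 ± 0.13 (adjusted p = 0.00511, limma). The lowest of them was the keratin gene KRT18 at -0.79. With a passage term 6 epithelial markers were called higher and 1, KRT18, lower, beside the same 525 and 425 of all tested genes. In the fit with no passage term, the calls of EFEMP1, SULF2, HSPG2, COL3A1, COL1A1 and CDH1 for cells without EGF rest on both libraries of that group, since no gene passed when either was left out (0 of 14763, with 1853 at an unadjusted p under 0.05 without library A and 1057 without library B). Without control A the adjusted p (limma) stayed below 0.05 for COL1A1 (0.0468) and CDH1 (0.0279) but not for EFEMP1 (0.191), SULF2 (0.0881), HSPG2 (0.182) or COL3A1 (0.0933). Without control B it was 0.146 for EFEMP1, 0.0548 for SULF2 and 0.153 for HSPG2, and below 0.05 for COL3A1 (0.0264), COL1A1 (0.0346) and CDH1 (0.0215). With no filter it was 0.0578 for EFEMP1, 0.0597 for SULF2, 0.0672 for HSPG2 and 0.0711 for COL3A1.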

How the data were processed

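Messenger RNA was purified on Dynabeads and made into 6 Script-seq libraries, per the labels' protocols. The submitters' processing notes list TopHat2 2.0.11, DESeq2 and the build hg19. Which counter, gene annotation and log transformation served is not given in the sources used here. Deposited by the authors were normalised log2 values, from -1.98 to 19.93, with 25986 of 57820 rows at 0 in all libraries and 0 rows at 0 in some only. Depth is unknown and count models were not used. Each of the 6 columns matched a label.

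Sample labels gave the groups. Group differences were fitted with limma 3.58.1 (R 4.3.3; lmFit, eBayes with trend and robust prior, two-sided) over all 6 libraries, with 3 residual degrees of freedom, and the passage comparison with a level for each siRNA, medium and passage combined, leaving 2 residual degrees. A lone library is assumed to vary like the others. The test took in 14763 rows (2 raised to the value, averaged over libraries, at or above 10), with Benjamini-Hochberg adjustment and a threshold of 0.05. The procedure was tested on simulated data. Symbols matched 96.4% of tested genes and 111 of 112 listed genes.

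The 10 genes and the lists were chosen with earlier results of these data known. Named besides the 10 genes are, per list, the 3 genes with the largest difference without EGF at a mean of at least 20, those past the threshold, the ends of a list's range, and the 2 closest profiles per gene, of which 1 is not reported here. The alternatives were no filter, a mean of at least 50, median centring, quantile normalisation, no trend or robust prior, a replicate block, controls A and B averaged, a passage term, passage 6 libraries only and each library left out.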

Additional observations from a re-analysis of the deposited data

How the results depend on the processing

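With 1 to 3 libraries a group, counts of calls depended on the fit more than the differences did. For cells without EGF against the 3 controls, 146 genes passed. The count was 87 with no filter, 94 at a mean of at least 50, 37 with controls A and B averaged, 950 with a passage term, 959 in passage 6 libraries only, and 0 to 951 with 1 library left out. Of the 10 genes 4 passed, 2 at a mean of at least 50 (where 6 were tested), 2 with controls A and B averaged and 0 to 6 with 1 library left out. Against the +EGF library labelled BRCA2-2, 30 genes passed, 18 with no filter, 13 at a mean of at least 50, 56 without trend and robust prior, 11 with controls A and B averaged, 569 with a passage term and 0 to 2404 with 1 library left out, and of the 10 genes 0, 1 with a passage term and 0 to 7. Between control passages 2963 genes passed, 0 with no filter, 0 with controls A and B averaged and 0 to 9849 with 1 library left out, and of the 10 genes 2, 0, 0 and 0 to 5. The cause of these changes was not tested. The +EGF library labelled BRCA2-2 and control P4 are alone in their group or passage, so comparisons that need them could not be fitted without them. In the comparison of that library with the controls, 0 genes passed under every alternative that could be fitted.

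The replicate letters share a name but not a stated batch or day, and A minus B correlated over 14763 genes with r = -0.172 between the passage 6 controls and the libraries without EGF. With the replicate block (limma) 6, 0, 0 and 2721 genes passed in the first comparison, those of the +EGF library labelled BRCA2-2 against the controls and against cells without EGF, and that of passages, and 0, 0, 0 and 1 of the 10 genes. With crossed letters, an alternative chosen after seeing the data, the counts were 112, 0, 10 and 2375, and 4, 0, 0 and 1.

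Some signs turned among differences that were not past the threshold. In the +EGF library labelled BRCA2-2 against the controls, FBN1 (-0.02) was 0.05 quantile normalised, 0.06 with the replicate block, 0.06 with controls A and B averaged, 0.31 with a passage term and -0.18 to 0.10 with 1 library left out. MFAP5 (0.07) was -0.03 with the block and -0.0017 to 0.19 with 1 left out, FAP (0.15) was -0.03 with a passage term, and BGN and THY1 ran from -0.04 to 0.27 and from -0.23 to 0.24 with 1 left out. THY1 without against with EGF (0.57) was -0.18 with a passage term. Between passages SULF1 (-0.05) was 0.02 with median centring and 0.02 quantile normalised, and PDGFRB (0.11) ran from -0.02 to 0.25 with 1 left out.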
